A study of Allium sativum with 42 samples.

Results

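Transcript levels of garlic (Allium sativum, cultivar Ershuizao) buds labelled 10 days old were compared with those of young bulbs labelled 192 days old, the first of 8 ages in a bulb series that per the labels began before the bulb starts to swell. Each group held 3 RNA-seq libraries, and the buds carry the numbers 1, 4 and 7 and the bulbs the numbers 1 to 3. A gene entered the comparison with at least 1 FPKM (fragments per kilobase, scaled to library size) in at least 3 of these 6 libraries, which 28618 of the 58219 gene IDs did. No strain difference, transgene or treatment is given for either group, and both come from farm-grown plants of 1 cultivar. The growth protocol calls the bud samples shoots, taken when the garlic sprouted. Organ, plant age and season differ together between the groups and cannot be told apart. The files do not pair IDs with gene names, so only a few genes are given by ID, no gene is given a function, and the labelled organs could not be checked against known markers. Nothing in the labels says that the 3 libraries of a group came from separate plants, so the p-values cover the spread between libraries alone and that spread may be technical.

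A garlic clove is itself a swollen axillary bud, and at planting it holds the shoot meristem and young leaves that sprout from it. A bulb forms months later when new axillary buds at the base of the shoot, the future cloves, fill with reserves, mainly fructans. In bulk samples such as these, fewer cells of a type and less RNA per cell cannot be told apart.

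Buds 1, 4 and 7 held 30.2, 11.5 and 17.2 megareads, as whole reads worked back from FPKM, and the bulbs between 29.5 and 30.8 megareads. Over the genes compared, replicates correlated at 0.959 to 0.976 in buds and at 0.978 to 0.986 in bulbs, and bud and bulb libraries at 0.872 to 0.902 (Pearson r of log2(FPKM + 1), across genes, which are not independent replicates). Bud 4, the shallowest library, was the farthest from the bulbs, at 0.872 to 0.883. Replicates differed by far more than sampling noise in every pair, with a chi-square per degree of freedom of at least 11.6.

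The bud transcriptome was the broader and the less concentrated of the pair. Buds 1, 4 and 7 had 29216, 28599 and 29118 genes at 1 FPKM or more, and the bulbs 26266, 26510 and 26398. Every bud library thus lay above every bulb library, with means of 28978 ± 332 and 26391 ± 122 genes (SD, n = 3, exact permutation test, 2-sided p = 0.1, the smallest that 3 against 3 libraries can give). Depth moves such counts, so all libraries were also thinned to the 11.5 megareads of bud 4. The means were then 28934 ± 293 and 26325 ± 112 genes (exact permutation p = 0.1). These counts rest on FPKM as deposited, and other scalings of the libraries were not tried on them. Genes with any read averaged 36740 ± 1227 in buds and 35921 ± 252 in bulbs before thinning (exact permutation p = 0.4). After thinning the means were 35910 ± 387 and 34000 ± 219 (exact permutation p = 0.1). The 100 most abundant genes held 16.6%, 16.4% and 16.5% of summed FPKM in the buds and 18.9%, 18.5% and 18.7% in the bulbs (exact permutation p = 0.1). For the 1000 most abundant genes the shares were 48.5% ± 0.729 and 55.0% ± 0.652.

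Far more genes were higher in bud than lower. Of the 28618 genes, 3935 were called higher in bud (13.8% of those tested) and 664 lower (2.32%), by limma on log2(FPKM + 1) where a call needs a change of 1 or more in log2 and a Benjamini-Hochberg adjusted p under 0.05. The imbalance held at every size of difference. By at least 2 on the log2 scale, 1142 genes were higher and 165 lower. By at least 3 the numbers were 391 and 55, and by at least 5 they were 67 and 8. A difference of at least 7 was reached by 13 genes higher in bud and by 0 lower in bud. Counted as parts of the whole, the 3935 genes made up 13.3% to 15.4% of summed FPKM in the buds and 3.21% to 3.70% in the bulbs, and the 664 genes 2.37% to 2.61% and 7.11% to 7.98%. These shares describe how much transcript the called genes held and are no further test, since the same values chose them.

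The numbers in each direction depended on how the libraries were scaled. With FPKM as deposited the genes had a median log2 difference of 0.22. Median-of-ratios scaling set that median to -0.01 and gave 2796 genes higher and 1255 lower, or 69.0% of calls higher in place of 85.6%. Quantile normalization gave 2196 and 1365 (61.7% higher). Over all genes compared, higher ones outnumbered lower ones under each scaling tried, though not in every class of abundance.

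**Figure D1:**
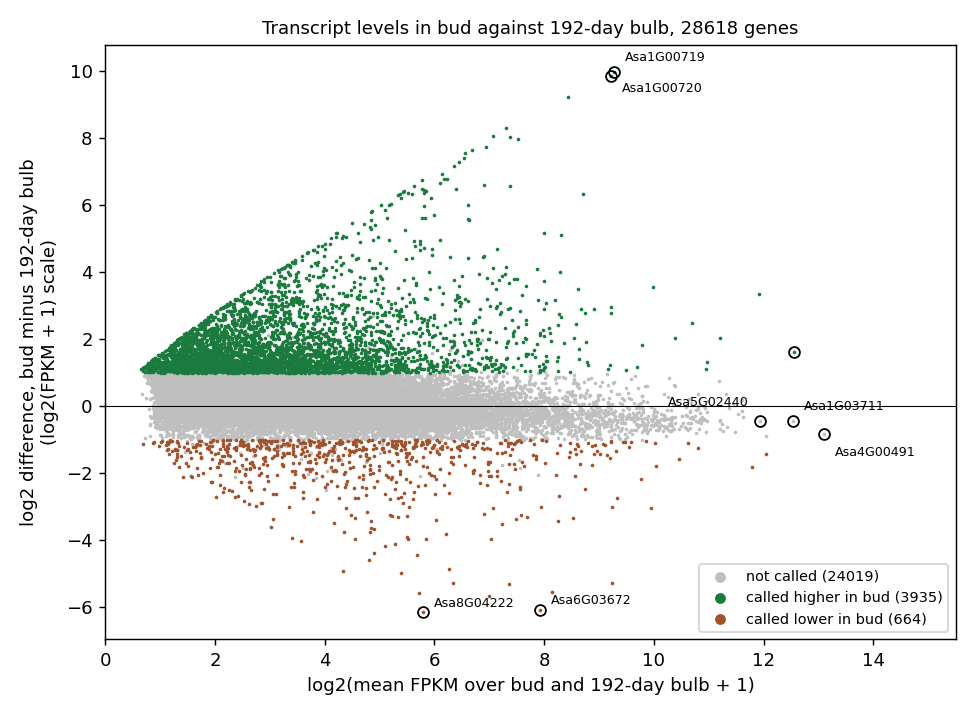
Log2 difference between bud and 192-day bulb (y axis, log2(FPKM + 1) scale) against the log2 of the mean FPKM of both groups plus 1 (x axis), 1 point per gene, 28618 genes. Green points are the 3935 genes called higher in bud, brown points the 664 called lower, and circles mark the 8 genes described singly in the text, 7 of them by ID, with the 2 largest differences near 10.

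Part of the imbalance was already set by which genes had a level to compare. There were 1338 genes at 1 FPKM or more in the 3 bud libraries and below it in all bulb libraries, and 106 genes of the opposite kind. Such genes had to differ to be included, and 986 and 66 of them were called. Among the 27174 genes at 1 FPKM or more in at least 1 library of each group, 2949 (10.9%) were higher in bud and 598 (2.20%) lower, so the imbalance was also present among genes measured on both sides. At the edge of the filter, the lowest third-highest value of a gene kept was 1.0007 FPKM and the highest of a gene left out 0.999 FPKM. A further 12168 IDs had a value above 0 in the 6 libraries but fell short of the filter, and 17433 were at 0 in all 6.

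The direction shifted with abundance. Among the 9099 genes with a mean of 1 to 5 FPKM over the 6 libraries, 16.1% were higher in bud and 1.38% lower, with a median log2 difference of 0.36. Among the 1927 genes of 100 to 1000 FPKM the shares were 9.29% and 5.92%, with a median of -0.21. Of the 138 genes at 1000 FPKM or more, 8 were higher and 7 lower in bud, with a median of -0.40. Low transcripts thus tended to be higher in bud and the most abundant ones to be lower. These classes include the 1338 and 106 genes that passed the filter through 1 group alone and had to differ. Their part in the lean of low transcripts was not tested. After median-of-ratios scaling the medians of the same classes were 0.17, -0.48 and -0.67 in the same order. Genes of 1 to 5 FPKM then counted 1060 higher and 204 lower, and those of 20 to 100 FPKM 483 and 442. For genes of 100 to 1000 FPKM the direction turned, from 179 higher and 114 lower to 130 and 228. Those at 1000 FPKM or more counted 7 higher and 17 lower. Coding length, which could be recovered from the FPKM steps for 28601 of the genes, also went with the share called higher in bud. In the shortest quartile, 69 to 420 bases, 17.2% of genes were higher in bud, against 8.79% in the longest, 1293 bases and more. The share lower in bud had no steady trend with length, at 2.69%, 2.11%, 2.83% and 1.65% from the shortest to the longest quartile. By abundance it was larger among the more abundant genes. The median coding length was 609 bases for genes higher in bud, 719 bases for those lower and 750 bases for all genes compared. The shortest quartile also had the fewest reads behind its values, with a median of 321 reads over the 6 libraries against 3566 in the longest, and the part of read depth in this pattern was not tested.

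**Figure D2:**
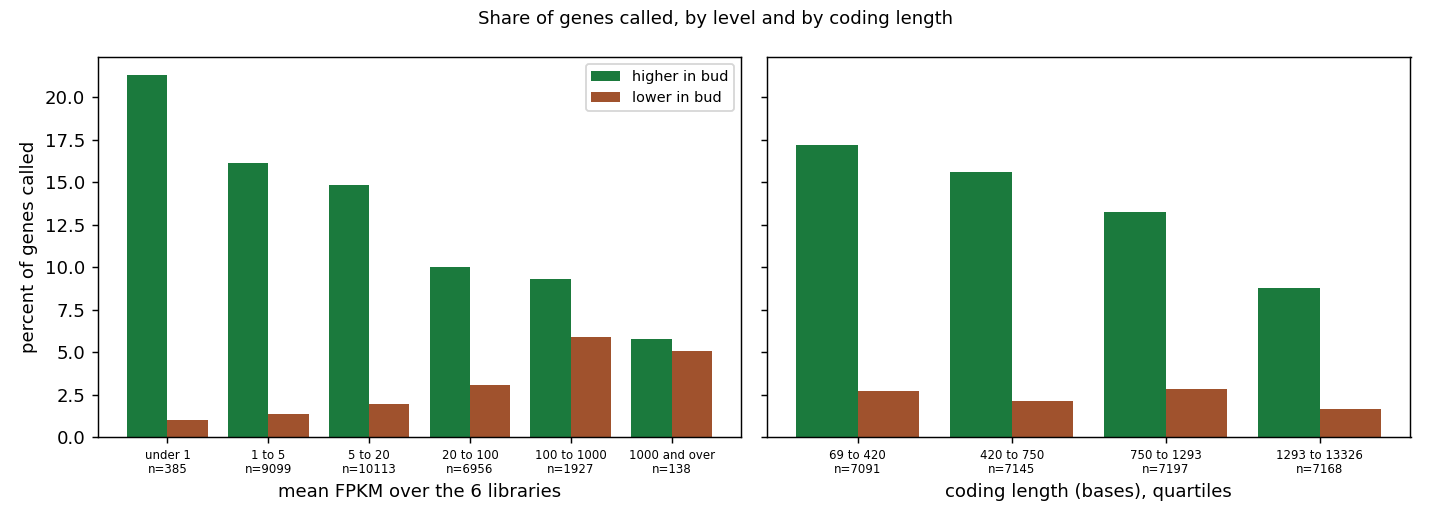
Percent of genes called higher (green) or lower (brown) in bud, by mean FPKM over the 6 libraries (left) and by quartile of coding length in bases (right), with the number of genes under each pair of bars. Calls are those with FPKM as deposited, and genes that passed the filter through 1 group alone are included. The share higher in bud falls from 21.3% below 1 FPKM to 5.80% at 1000 FPKM or more, and from 17.2% to 8.79% from the shortest to the longest quartile.

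The largest differences were those of a pair of genes with consecutive IDs. Both passed the filter through bud alone and were picked for a large difference without overlap between the groups. A large difference was thus fixed by the choice, and their p-values and interval are a description and no further support. Asa1G00719.1, with a coding length of 210 bases, had 710, 1548 and 1432 FPKM in buds 1, 4 and 7 and 0.151, 0.144 and 0.147 FPKM in the bulbs, where each library held 1 read. The groups lay far apart, with bud 1 the lowest of the buds. The log2 difference was 9.99 ± 0.28 (SE, limma, adjusted p = 1.55e-06), and the ratio of reads per mapped fragment was 7339 with a 95% exact interval of 2511 to 35591, which covers counting error only. Asa1G00720.1, of 267 bases, had 675, 1353 and 1562 FPKM in the buds, and 0, 3 and 3 reads in the bulbs. Its log2 difference was 9.85 ± 0.31 (limma, adjusted p = 2.5e-06). Whether the pair are close copies is not known without sequences, and how their reads were divided is uncertain.

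Both genes were also high in garlic sprouts, leaves and pseudostems and at or near 0 in roots. Asa1G00719.1 averaged 2663 ± 403 FPKM in garlic sprouts, 1330 ± 204 in leaves and 743 ± 519 in pseudostems (SD, n = 3), and had 0 reads in all 3 root libraries. Asa1G00720.1 averaged 3938 ± 481 FPKM in sprouts, 1803 ± 659 in leaves and 941 ± 584 in pseudostems, and had at most 2 reads in a root library. In flowers the means were 6.20 ± 2.34 and 10.8 ± 2.74 FPKM. Among the 7 later bulb ages neither gene averaged more than 5.88 FPKM, and the highest means, 3.57 ± 1.02 and 5.88 ± 1.15 FPKM, were both those of 207-day bulbs. The order of the organs with high levels is not firm, since the pseudostem libraries ranged from 285 to 1307 FPKM for the first gene and overlapped those of bud and leaf.

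The genes that were lowest in bud relative to young bulb varied more between bulbs. Asa8G04222.1, of 240 bases, had 98.1, 194 and 32.4 FPKM in bulbs 1 to 3 and 0.250, 0 and 0.443 FPKM in buds 1, 4 and 7, which rest on 2, 0 and 2 reads. Both genes of this paragraph were picked for a large difference without overlap between the groups, so their p-values are a description. Asa8G04222.1 also passed the filter through the bulbs alone. Its level in bulb 2 was several times that in bulb 3. The log2 difference was -6.15 ± 0.57 (limma, adjusted p = 0.000296). Asa6G03672.1, of 333 bases, had 574, 660 and 210 FPKM in the bulbs and 7.47, 5.28 and 3.99 FPKM in the buds, again with bulb 3 the lowest of its group and no overlap. Its log2 difference was -6.07 ± 0.42 (limma, adjusted p = 9.41e-05), and its ratio of reads per mapped fragment was 79.9 (95% exact interval 67.2 to 95.6, counting error only).

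These 2 genes stayed detectable in bulbs of every age and were also high in root. Asa6G03672.1 averaged between 482 ± 239 FPKM at 192 days and 1663 ± 241 FPKM at 212 days, and 305 ± 99.8 FPKM in root, against 0.178 ± 0.309 FPKM in leaf and 0.533 ± 0.248 FPKM in sprout. Asa8G04222.1 was highest in root, at 1016 ± 1152 FPKM (libraries between 225 and 2337), and among bulbs highest at 212 days, at 389 ± 108 FPKM. The level of both genes was erratic in bulbs. At 207 days the libraries ranged from 10.1 to 466 FPKM for Asa8G04222.1 and from 25.9 to 2538 FPKM for Asa6G03672.1. The bud libraries, at most 0.443 FPKM, were the lowest of all 14 groups for Asa8G04222.1, whereas leaf and sprout were below bud for Asa6G03672.1. Flower also averaged lower for Asa6G03672.1, at 3.96 ± 3.52 FPKM against 5.58 ± 1.76 FPKM in bud, with overlapping libraries.

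**Figure D3:**
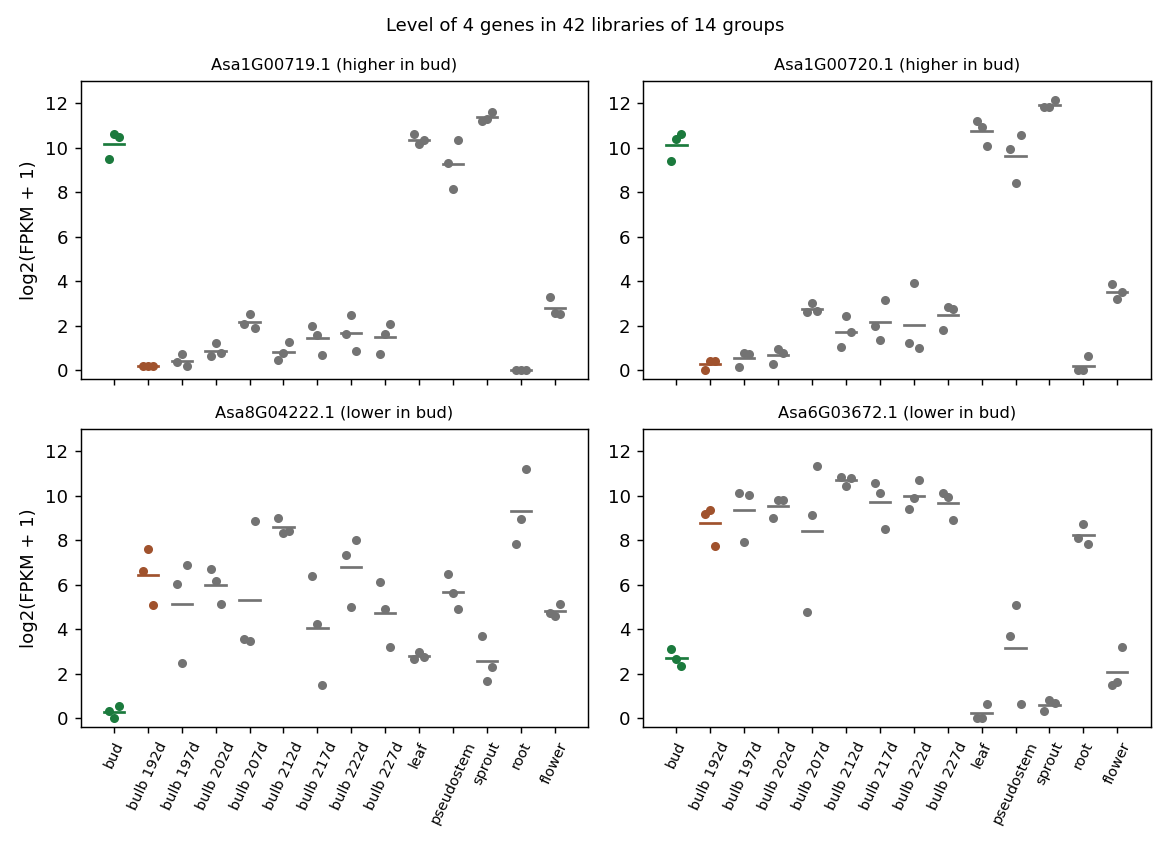
Log2(FPKM + 1) of the 2 genes with the largest difference in each direction, in all 42 libraries of 14 groups. Points are libraries, bars are means of the 3 points, with bud in green and 192-day bulb in brown. The upper pair is high in bud, leaf, pseudostem and sprout, and the lower pair is high in bulbs and root.

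The most abundant transcripts differed less. The most abundant gene of bud, which is not given by ID here and is none of the genes above, had 7731, 9058 and 10360 FPKM there and reached 2574, 3732 and 2634 FPKM in the bulbs. The libraries of the groups did not overlap, and it was called higher in bud, with a log2 difference of 1.61 ± 0.18 (limma, adjusted p = 0.000671). Its means in leaf, pseudostem, sprout and root were 12498 ± 3087, 14788 ± 4717, 11103 ± 1605 and 12995 ± 1239 FPKM, while it stayed at 4237 ± 763 FPKM or less in bulbs of every age and in flowers. The most abundant gene of the young bulb, Asa4G00491.1, had 10888, 11603 and 11209 FPKM there and 6823, 5947 and 6047 FPKM in buds, again without overlap. Its log2 difference of -0.84 ± 0.11 fell short of the size needed for a call (limma, adjusted p = 0.00125), and with median-of-ratios scaling it was called, at -1.12 (limma, adjusted p = 0.0014). It rose to 21342 ± 2470 FPKM in 202-day bulbs and averaged 22.2 ± 7.09 FPKM in leaf.

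Among genes whose 95% interval lay within a log2 difference of 1 in either direction, Asa1G03711.1 and Asa5G02440.1 were the most abundant. Asa1G03711.1 had 4863, 5277 and 5030 FPKM in buds and 7207, 6542 and 6807 FPKM in bulbs (log2 difference -0.44, 95% interval -0.68 to -0.20). Asa5G02440.1 had 3572, 3159 and 3235 FPKM in buds and 4334, 4561 and 4524 FPKM in bulbs (-0.43, 95% interval -0.66 to -0.20). The libraries of the groups did not overlap for either gene, so both were somewhat lower in bud on this scale while differing by less than 2-fold. With median-of-ratios scaling their differences were -0.71 and -0.70, and with quantile normalization they were -0.50 and -0.02.

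Genes without a single read in the 3 young bulbs numbered 100, against 4 without a read in the 3 buds. The bulb libraries were together the deeper set. Of the 100 genes, 35 averaged at least 10 FPKM in bud, and 0 of the 4 did so in bulb. These 35 passed the filter through bud alone, so a large difference was fixed by how they were picked, and the folds are a description. Taking 3 reads over the 3 bulb libraries as the limit that a count of 0 allows, for counting error only, the 35 genes were at least 105-fold to at least 14258-fold higher in bud, with a median bound of 432-fold. Of these 35 genes, 25 (71.4%) averaged at least 10 FPKM in leaf, pseudostem and sprout alike, a share near the 64.6% of all 14790 compared genes with such a level in bud. Of the 25, 15 stayed under 1 FPKM in root and at every bulb age. In root 4 of the 35 reached 10 FPKM (11.4%, against 63.0% of the 14790), in flower 2 (5.71% against 70.0%) and at any later bulb age 2 (5.71% against 88.2%). The low share at later bulb ages was partly set by choosing genes without reads in young bulb. Their median level was 26.1 FPKM in bud, 266 FPKM in leaf, 111 FPKM in pseudostem and 293 FPKM in sprout. In leaf, pseudostem and sprout the median was thus higher than in bud itself. For 16 of the 35 the highest of the 12 other groups was leaf (45.7%, against 13.8% of the 14790), and for 15 it was sprout (42.9% against 13.4%).

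The wider set of strongly bud-higher genes was less uniform. It comprised the 368 genes higher by at least 3 on the log2 scale that averaged 10 FPKM or more in bud. Their median level was 36.5 FPKM in bud and 0.825 FPKM in 192-day bulb, which chose them. In groups that did not choose them, the median was 51.8 FPKM in leaf, 44.0 FPKM in pseudostem and 45.9 FPKM in sprout, but 3.45 FPKM in root and 4.11 FPKM in flower. In the later bulbs it was 0.743 FPKM at 197 days and between 2.05 and 3.08 FPKM from 202 to 227 days. At least 10 FPKM was reached in leaf, pseudostem and sprout alike by 209 of them (56.8%), against 64.6% of the 14790. The shares lay farther apart in the other organs. In root 38.9% reached 10 FPKM, against 63.0% of the 14790, in flower 36.7% against 70.0%, and at any later bulb age 42.4% against 88.2%. The 368 were chosen for a low level in young bulb, where 81.2% of the 14790 reached 10 FPKM. Their lower share at later bulb ages was thus partly set by the choice. Under 1 FPKM in each of the 12 groups other than bud and 192-day bulb were 12 of the 368 genes (3.26%). Among the 14790, which include the 368, there were 16 (0.108%).

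The strongly bud-lower genes had high medians in bulbs and root and low ones in leaf and sprout. All 55 genes lower by at least 3 averaged 10 FPKM or more in the 192-day bulb, with a median of 81.2 FPKM there and 4.32 FPKM in bud. Each of the 55 reached 10 FPKM in at least 1 later bulb age, as did 96.1% of all 12671 compared genes with such a level in the young bulb. Their median level was 164 FPKM at 212 days, 44.9 FPKM at 227 days and 149 FPKM in root, against 2.77 FPKM in leaf and 6.45 FPKM in sprout, and 20.1 FPKM in pseudostem. In root 41 of the 55 (74.5%) reached 10 FPKM, a share near the 67.9% of the 12671. In leaf 15 did (27.3% against 70.9%), in sprout 22 (40.0% against 83.0%), in pseudostem 34 (61.8% against 77.3%) and in flower 36 (65.5% against 76.1%). The highest of the 12 other groups was root for 20 genes (36.4%, against 11.2% of the 12671) and 212-day bulb for 19 (34.5% against 5.43%).

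**Figure D4:**
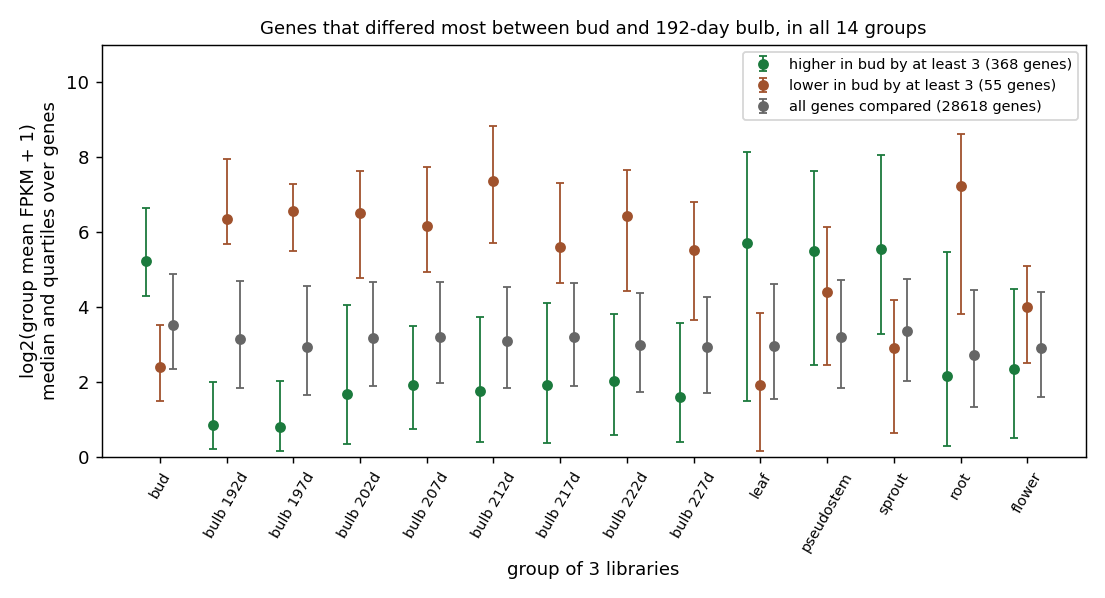
Median and quartiles over genes of log2(group mean FPKM + 1) in the 14 groups, for the 368 genes strongly higher in bud (green), the 55 strongly lower (brown) and all 28618 genes compared (grey). Bud and 192-day bulb chose the green and brown genes. These also averaged at least 10 FPKM in bud (green) or 192-day bulb (brown), which the grey genes need not, so part of their distance to grey was set by that cut. All compared genes with such a level in bud had a median of 18.7 FPKM in leaf. Those with such a level in 192-day bulb had a median of 18.5 FPKM in root. In the other groups the green medians are high in leaf, pseudostem and sprout, and the brown medians are high in bulbs and root.

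Comparisons made from libraries that did not choose the genes showed how the called genes behaved elsewhere. Each had a bulb as its reference, and the level in young bulb had helped to choose the lists. Bud-higher genes had medians of 1.93 FPKM at 197 days and 3.49 FPKM at 212 days. For all genes compared these were 6.68 and 7.53 FPKM, and for bud-lower genes 29.6 and 28.6 FPKM. A lean of each list to its own side was thus partly set by the choice. Between 197-day and 222-day bulbs, 3388 of the 3935 bud-higher genes were tested, and 1032 of them (30.5%) were higher and 184 (5.43%) lower in the older bulb, where 9.29% and 12.8% of all genes tested were called. The bud-lower genes went the other way, with 32 of 663 tested (4.83%) higher and 206 (31.1%) lower. Median log2 differences were 0.59 for the bud-higher genes, -0.52 for the bud-lower genes and -0.04 for all 29752 genes tested. The fit used the 6 bulb ages from 197 to 222 days, with the same call rule.

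In leaf against 212-day bulb the lists again lay on opposite sides. Of the bud-higher genes, 1529 of 3772 tested (40.5%) were higher in leaf and 560 (14.8%) lower, where 18.3% and 20.1% of all genes tested were called. Of the bud-lower genes, 452 of 656 tested (68.9%) were lower in leaf and 40 (6.10%) higher. Median log2 differences were 0.61 and -1.91, against -0.08 for all 32617 genes tested.

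In root against 212-day bulb, 1086 bud-higher genes (28.8%) were higher in root and 701 (18.6%) lower, where 17.0% and 23.4% of all genes tested were called. Bud-lower genes were lower in root in 282 cases (43.0%) and higher in 123 (18.8%). Median log2 differences were 0.09 for the bud-higher genes, -0.66 for the bud-lower genes and -0.24 for all genes tested. The comparisons with leaf and with root share the 212-day bulbs. After median-of-ratios scaling of every comparison, which changes the lists as well, bud-higher genes were called higher in 39.5%, 47.7% and 37.1% of cases in the order given, where 11.2%, 19.5% and 20.6% of all genes were.

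**Figure D5:**
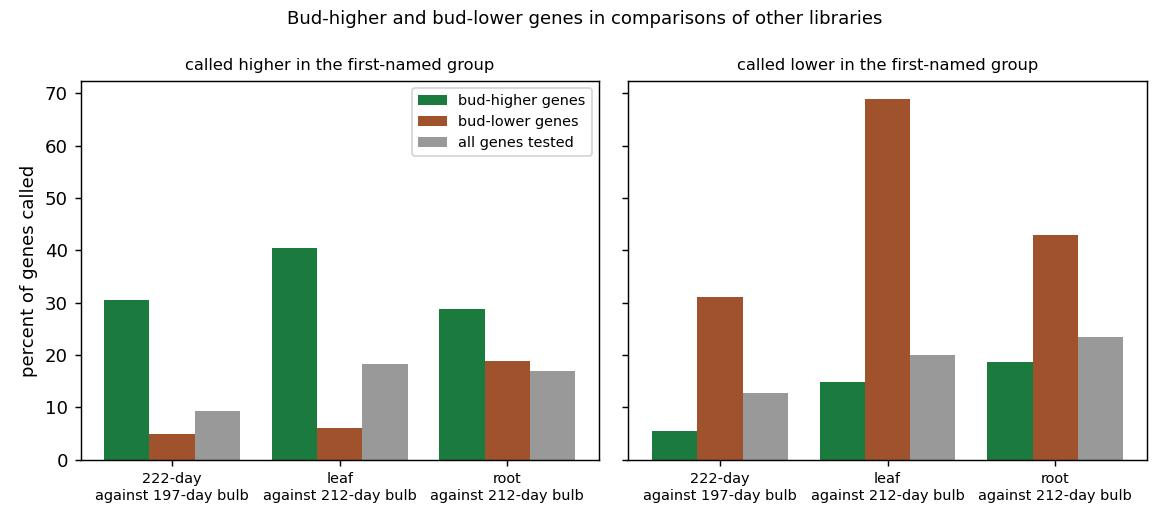
Percent of bud-higher genes (green), bud-lower genes (brown) and all genes tested (grey) that were called higher (left) or lower (right) in the first-named group of 3 comparisons made without bud or 192-day bulb libraries. Green exceeds grey on the left and brown exceeds grey on the right in each comparison. Each reference is a bulb, so part of this was set by how the lists were chosen.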

How the data were processed

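The authors deposited 1 table of FPKM for 58219 gene IDs in 42 columns, 1 per sample by title. Bowtie2 and RSEM are named in the submitters' processing notes, while tool versions, the reference and its annotation were not given in the sources used here. Every FPKM value was a whole number of single-read steps, within 0.001 reads for all 45750 genes above 0, which returned read counts. The smallest counts that made all values of a gene whole were taken. A gene above 0 in 1 library thus passes by construction, and counts that share a common factor come back too low. The steps also gave lengths within 0.01 of a whole base for the 38950 genes above 0 in at least 10 libraries. Of these, 94.5% were multiples of 3, hence coding lengths. How multi-mapping reads were divided is not known.

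Groups followed tissue and age in the labels. Tests used limma 3.58.1 in R 4.3.3 on log2(FPKM + 1), with group means, a variance trend and Benjamini-Hochberg adjustment, on the 6 libraries alone. The 3 further comparisons came from fits of 18 libraries each without bud or 192-day bulb. On this scale the change of a gene with low FPKM is understated. Library values were compared by exact permutation in SciPy 1.17.1. Named genes were the 2 largest called differences in each direction that reached 10 FPKM on the higher side without overlap, the most abundant gene of each group, and the 2 most abundant uncalled genes with a 95% interval within 1. Lists and members were chosen with earlier results of these data known. The fits were tested on simulated data with the same dispersion for every gene and no shift in scale between groups. That test therefore does not bear on how the calls depend on scaling or on the real spread of replicates. Alternatives were other pseudocounts, filters, scalings, fits and call rules, and each library left out in turn.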

Additional observations from a re-analysis of the deposited data

How the results depend on the processing

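Numbers of calls between bud and 192-day bulb stayed within 1.5 times the reported 3935 and 664 with a pseudocount of 0.1 (5069 and 801), without the filter, with TPM, with all 42 libraries in the fit and with voom on recovered reads (5525 and 720). With a filter of 5 FPKM 2587 genes were higher, with fewer genes tested. Median-of-ratios scaling gave 1255 lower genes, quantile normalization 2196 higher and 1365 lower, and voom with median-of-ratios scaling, added after seeing the data, 1449 lower. The cause was not tested. Without a minimum fold the numbers were 8913 and 3366, and with treat against a log2 difference of 1 they were 1080 and 157, as those rules imply. Leaving out each of the 6 libraries gave 3655 to 4037 higher and 621 to 733 lower genes, and differences of 2467 to 2776 in genes at 1 FPKM or more and of -2.28 to -2.12 percentage points in the share of the 100 most abundant.

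In the comparisons of other libraries, a pseudocount of 0.1 gave 292 bud-higher genes lower at 222 days, 61 bud-lower genes higher in leaf and 1175 bud-higher genes lower in root. Median-of-ratios scaling lengthened the bud-lower list. With it 58 bud-lower genes were higher at 222 days (4.63%, against 11.2% of all genes tested) and 435 lower (34.7% against 11.4%). In leaf 72 were higher (5.82% against 19.5%) and 748 lower (60.4% against 18.4%). In root 219 were higher (17.7% against 20.6%) and 482 lower (38.9% against 17.8%). Under the same scaling 368 bud-higher genes were lower in leaf (13.8% against 18.4%) and 395 in root (14.8% against 17.8%). Leaving out 1 library gave, for bud-higher genes, 893 to 1058 higher and 150 to 197 lower at 222 days, 1437 to 1559 and 520 to 567 in leaf, and 1046 to 1142 and 669 to 747 in root. For bud-lower genes it gave 25 to 34 higher and 182 to 225 lower at 222 days, 37 to 41 and 436 to 453 in leaf, and 116 to 131 and 257 to 284 in root.

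No paired analysis was possible because bud and 192-day bulb share only the replicate number 1. In the other comparisons, a replicate block gave 1037 bud-higher genes higher at 222 days, 1526 in leaf and 1084 in root, and moved no count by over 1.5 times. Same-numbered libraries of 197-day and 222-day bulbs deviated together at r = 0.0767, 0.134 and 0.173, each above the pairs of unlike number, a hint from the data and not the design. In leaf and root the values lay between -0.0926 and 0.066.

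Bud 4 had the fewest reads, 11.5 megareads, which limits genes near 1 FPKM most.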

Other observations

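Genes with neighbouring serial numbers in their IDs were called together more often than single genes. Whether serial numbers follow position on a chromosome is not given in the sources used here. Among the 28618 genes compared there were 16669 pairs of consecutive serial numbers under the same prefix. In 520 of these pairs both genes were higher in bud, so 23.7% of the neighbours of a bud-higher gene were bud-higher too, where 13.8% of all genes were. In 60 pairs both were lower in bud, and 16.1% of the neighbours of a bud-lower gene were bud-lower, where 2.32% of all genes were. Bud-higher genes formed 66 runs of at least 3 consecutive numbers with 210 genes in all, and bud-lower genes 7 runs with 23 genes. The longest run held 5 genes in either direction. Reads shared between similar neighbouring genes would also give such runs, and this was not tested.

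The share of bud-higher genes was nearly even over the ID prefixes. It lay between 12.4% for IDs that begin with Asa0G and 14.6% for those that begin with Asa8G, and the share of bud-lower genes between 1.94% (Asa7G) and 2.66% (Asa1G).

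The spread between replicates was slightly larger in bud. The median SD of a gene on the log2(FPKM + 1) scale was 0.19 in bud and 0.17 in the 192-day bulb, and 56.3% of genes had the larger SD in bud.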
